A study of Homo sapiens with 3 samples.

Results

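The peaks described here are those that the wild-type MECOM peak list names for PRDM2, PRDM7, PRDM13 and ZNF408, 4 of the 3462 peaks in that list. They were chosen by the gene symbol that the authors' deposited annotation gives each called peak, so having a peak is how the genes were picked and is no finding about them. Each of the 4 genes was named once. Chromatin immunoprecipitation with sequencing (ChIP-seq) had been done in HEK293T cells, an established human embryonic kidney line. The cells carried an empty pMYS-IG vector, wild-type MECOM or its R750W form, and DNA was recovered with an antibody to the AM tag, a short peptide joined to the protein. Each of these 3 groups is 1 library. The labels give growth in serum-containing medium and no drug or time course. The MECOM here is introduced from a vector, so its amount is not that of a cell's own gene. Only the wild-type list was used. What the antibody recovers from cells with the empty vector was not analysed here, and no peak has a replicate. The series concerns how MECOM acts in leukaemia and mast cell differentiation beside GATA2.

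PRDM proteins share a PR domain, a relative of the SET domain of histone lysine methyltransferases, usually followed by zinc fingers that bind DNA. MECOM, the immunoprecipitated protein, is itself a PRDM family member. Several genes of the family, PRDM2 and MECOM among them, are known to make a long product with the PR domain and a shorter one without it, the latter from a start inside the gene. PRDM2 encodes a tumour suppressor that binds the retinoblastoma protein. PRDM7 is a close copy of PRDM9, the protein that places meiotic recombination. PRDM13 directs the choice of neuron type in the spinal cord, retina and cerebellum. ZNF408 encodes a zinc finger protein needed in the retina and its vessels.

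The peaks of PRDM2 and ZNF408 overlapped a listed promoter window, as did 33.5% of all peaks in the list, and those of PRDM7 and PRDM13 did not. The DNA beside those starts is shown first. Sequences and starts come from RefSeq on GRCh38.p14, the patch release of the hg38 assembly named in the submitters' processing notes. All 4 symbols had a promoter window there. A window runs from 250 bases before a start to 50 after it. PRDM2 has 3 listed starts. The 250 bases before its first start, which no peak overlapped, and before its internal start, 4 bp ahead of the peak, are given on the gene's own strand with CG dinucleotides in capitals.

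PRDM2 first start, chr1:13699938-13700187: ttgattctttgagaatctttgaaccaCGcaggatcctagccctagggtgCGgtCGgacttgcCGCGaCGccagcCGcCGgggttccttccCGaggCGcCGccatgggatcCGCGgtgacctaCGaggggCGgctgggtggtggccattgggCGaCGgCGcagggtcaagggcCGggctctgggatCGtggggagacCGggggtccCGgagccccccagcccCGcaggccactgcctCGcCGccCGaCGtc
PRDM2 internal start, chr1:13749165-13749414: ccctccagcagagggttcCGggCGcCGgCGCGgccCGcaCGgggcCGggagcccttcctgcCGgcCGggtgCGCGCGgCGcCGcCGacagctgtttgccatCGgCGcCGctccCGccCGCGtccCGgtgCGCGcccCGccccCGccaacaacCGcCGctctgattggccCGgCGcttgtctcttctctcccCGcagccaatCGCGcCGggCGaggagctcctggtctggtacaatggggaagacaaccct

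ZNF408 lies head to head with ARHGAP1, which is read from the opposite strand. The 198 bases between the RefSeq start of ARHGAP1 and the deposited start of ZNF408 lay wholly inside the peak. They are given on the strand of ZNF408, and capitals mark the single match to CCGGAAG, the core of many ETS factor sites, which reads on the strand of ARHGAP1.

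ZNF408 and ARHGAP1 upstream stretch, chr11:46700620-46700817: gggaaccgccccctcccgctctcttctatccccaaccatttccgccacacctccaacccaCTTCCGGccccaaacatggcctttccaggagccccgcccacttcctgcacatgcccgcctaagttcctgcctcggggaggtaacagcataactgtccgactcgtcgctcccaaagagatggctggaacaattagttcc

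All 4 peaks lay above the list median in fold, PRDM7 and PRDM2 above its upper quartile of 5.67, with wide and overlapping intervals. Fold enrichment is the deposited ratio of fragments at the highest point of a peak to the local background, with 1 added to each. PRDM7 had 6.23-fold enrichment (95% interval 3.92 to 9.46), from 20 fragments over an expected background of 2.37. PRDM2 had 6.03-fold enrichment (3.70 to 9.35), from 18 fragments over 2.15. For PRDM13 the value was 5.19-fold (2.94 to 8.62), from 13 fragments over 1.70. For ZNF408 it was 5.04-fold (3.01 to 8.0), from 16 fragments over 2.37. The intervals are exact Poisson ones for the fragment number, take the background as known, and cover counting error alone. The highest and lowest of the 4 values differed by 1.24 times, and the intervals of all 6 pairs overlapped. All 4 intervals also held the median of the list, 4.82-fold.

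**Figure D1:**
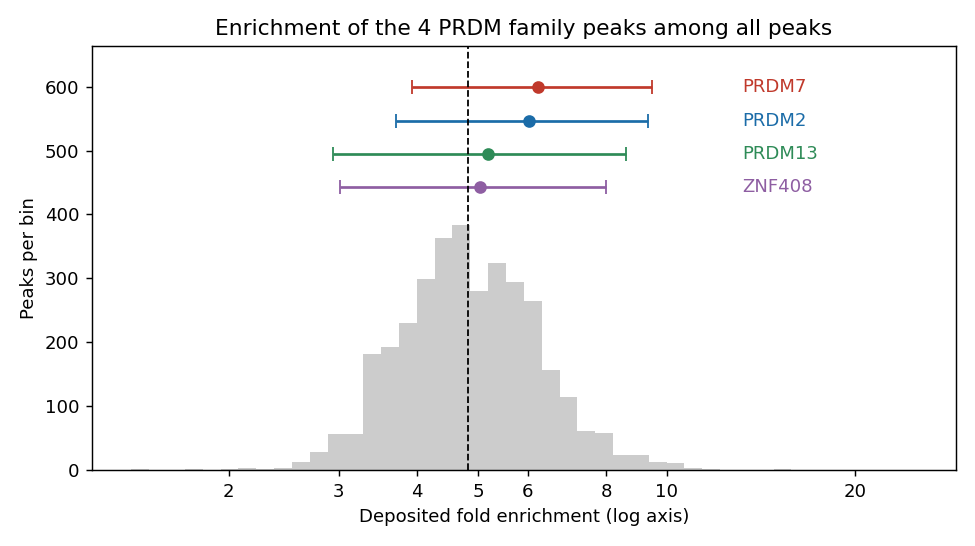
Deposited fold enrichment of the 4 peaks (points, with exact 95% Poisson intervals as bars) above the distribution of fold over the list (grey bars, peaks per bin; 3 peaks inside MECOM, at 360-fold and more, lie beyond the axis). The dashed line is the list median of 4.82, which crosses all 4 intervals.

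Rank within the list depended on the quantity ranked. By fold, PRDM7 stood above 84.2% of peaks, PRDM2 above 82.2%, PRDM13 above 60.7% and ZNF408 above 56.2%. By the number of fragments, the same peaks stood above 61.3%, 47.1%, 6.47% and 29.1% in that order. By the deposited −log10 q they stood above 81.8%, 74.7%, 37.1% and 46.8%. PRDM13 moved most, since its 13 fragments sat on the lowest background of the list, 1.70 fragments, a level shared by 422 peaks. Exactly 13 fragments over that background occurred at 64 peaks, PRDM13 included, so its height is a common value of the list. The background was 2.37 fragments at both PRDM7 and ZNF408. All 4 backgrounds lay below the list median of 2.92, against a median of 18 fragments with quartiles of 15 and 22.

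**Figure D2:**
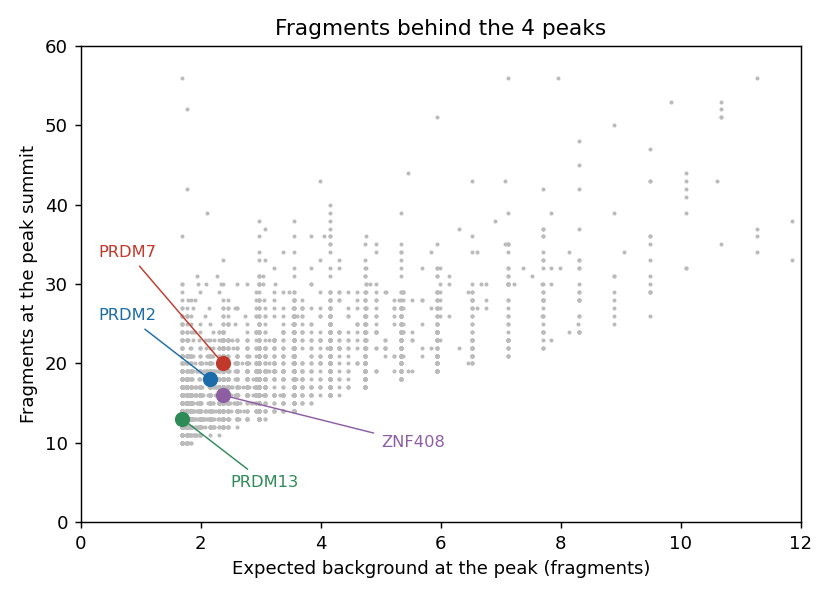
Fragments at the peak summit against expected background, 1 grey point per peak of the list, with the 4 peaks in colour (peaks above 60 fragments or 12 background fragments are not drawn). PRDM13 sits at the left edge of the points, at 13 fragments over 1.70, and the other 3 peaks lie at 16 to 20 fragments over 2.15 to 2.37.

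In statistical strength, PRDM7 had the highest deposited −log10 q at 8.28, followed by PRDM2 at 7.28, ZNF408 at 5.18 and PRDM13 at 4.56. The median of the list was 5.33. PRDM13 and ZNF408 had the wide peaks, at 619 and 589 bp, whereas PRDM7 and PRDM2 had peaks of 378 and 311 bp. Widths are those of the called regions. The list's median width was 414 bp.

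The PRDM2 peak, chr1:13749419-13749729, lay deep in the gene but beside an internal start. The authors' annotation (ENSG00000116731, plus strand) gives it as inside the gene, 49221 bp from the deposited start. The third RefSeq start of PRDM2 lies at position 13749415. The peak began 4 bp after that start and ended 314 bp after it, and 46 of its bases fell in the start's promoter window. The first and second starts were 49231 and 45665 bp from the peak, and neither window held any of it. Whether this internal start makes the short PRDM2 product was not determined here, and exon positions were not used. Within 1 Mb of the peak there was no other peak. The nearest was 2618 kb away, beside a gene to which the deposited annotation gives no symbol (3.86-fold). On the other side the nearest lay 3350 kb away inside PGD, a gene of the pentose phosphate pathway (4.84-fold).

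CG content was high at the internal and first PRDM2 starts and low at the second. The window of the internal start held 41 CG dinucleotides, 1.01 times the number expected from its C and G content, more than 92.6% of the 35116 RefSeq windows. The first start held 36, at 0.93 times the expected number. The second held 5, at 0.45 times. The first start, with similar CG content to the internal one, had no peak. Windows overlapped by a peak had a median ratio of 0.84, against 0.54 in the rest, and they made up 4.45% of all windows.

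Peaks deep in a gene and near a listed start recurred elsewhere. In genes with a promoter window, 67 gene-body peaks lay over 10000 bp from the deposited start. Of these, 25 lay within 1000 bp of a listed start of the same gene (37.3%). Any RefSeq start counted, so it may be the first one where the deposited gene is longer. Of these 25 peaks, in 24 genes, 8 held the listed start. The PRDM2 start lay 4 bp outside its peak, and the gap over the 25 peaks had a median of 154 bp (0 to 908). Their median fold was 4.44 (quartiles 3.95 and 5.67), below the 6.03 of PRDM2 and inside its interval. Over all genes with several listed starts, a peak overlapped the window of the first start in 5.26% of 5212 cases and that of a later start in 4.71% of 7790.

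The ZNF408 peak, chr11:46700364-46700952, covered the facing starts of ZNF408 and ARHGAP1. In the deposited annotation (ENSG00000175213, plus strand) it spans the gene start and begins at -454 bp from it. That start, 46700818, lies 213 bp ahead of the RefSeq start at 46701031. Against the RefSeq start the peak ran from -667 to -79 bp and stopped short of it. By contrast, the RefSeq start of ARHGAP1, 46700619, lay inside the peak, with 256 peak bases in ARHGAP1. The whole ARHGAP1 promoter window of 300 bases was covered, against 172 bases of the ZNF408 window. A further 135 peak bases lay after the deposited ZNF408 start. The ARHGAP1 start and the deposited ZNF408 start thus both lay inside the peak, and a link of the peak to either gene was not tested.

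Peaks over windows of such facing gene pairs numbered 195, or 5.63% of the list. Their median fold of 4.85 (quartiles 4.02 and 5.65) was close to the 5.04 of ZNF408. The CG ratio was 0.83 in the ARHGAP1 window and 0.56 in that of ZNF408, the latter near the median of 0.58 over all windows. The nearest other peak lay 106 kb away inside AMBRA1, an autophagy gene (6.68-fold), and 6 other peaks lay within 1 Mb.

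The PRDM7 peak, chr16:90082141-90082518, was inside the gene by one annotation and upstream by the other. The deposited gene (ENSG00000126856, minus strand) runs from 90056566 to 90092072, which puts the peak inside it. The deposited distance of 9931 bp after the start is to the far edge of the peak, and the near edge is 9554 bp away. RefSeq ends the gene at 90077331, so there the near edge lay 4810 bp before the start. The peak was outside every RefSeq gene. The next RefSeq entry beyond it was the tubulin pseudogene TUBB8P7, 11447 bp away. Of 1247 peaks that the authors placed inside a gene with a RefSeq symbol, 61 lay outside the RefSeq span of that gene (4.89%). For 24 of them the gap was larger than that of PRDM7. The median fold of the 61 peaks was 4.70 (quartiles 4.14 and 5.82), and the 6.23 of PRDM7 lay above the upper quartile.

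PRDM7 and PRDM9 have similar promoter sequences. Their RefSeq promoter windows matched at 255 of 318 aligned positions (80.2%). The PRDM7 window held no part of the peak, and the sequence under the peak was not compared. The nearest peak to PRDM9 was 6890 kb from it, the farthest of any family gene. The sources used here do not say how reads that fit several places were treated, and the part of this in the PRDM7 peak was not tested. No peak lay between the PRDM7 peak and the end of chromosome 16. On its other side the nearest was 380 kb away across the start of SPATA2L (6.20-fold).

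The PRDM13 peak, chr6:99614551-99615169, lay at the far end of its gene. The deposited gene (ENSG00000112238, plus strand) is 8849 bp long, and the peak began 7821 bp from its start and ended 409 bp before its end. In RefSeq the distances were 7718 and 393 bp, so both annotations gave the same place. The single listed promoter window of PRDM13 held no part of the peak. Among the 1382 gene-body peaks of the list, 18 (1.30%) likewise ended within 1000 bp of the far end while starting over 1000 bp from the start. Their median fold was 5.01 (quartiles 4.29 and 6.0), close to the 5.19 of PRDM13. The nearest other peaks lay 99.2 and 99.9 kb away, at 4.79- and 4.45-fold, beside a gene to which the deposited annotation gives no symbol. Within 1 Mb there were 6 other peaks.

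**Figure D3:**
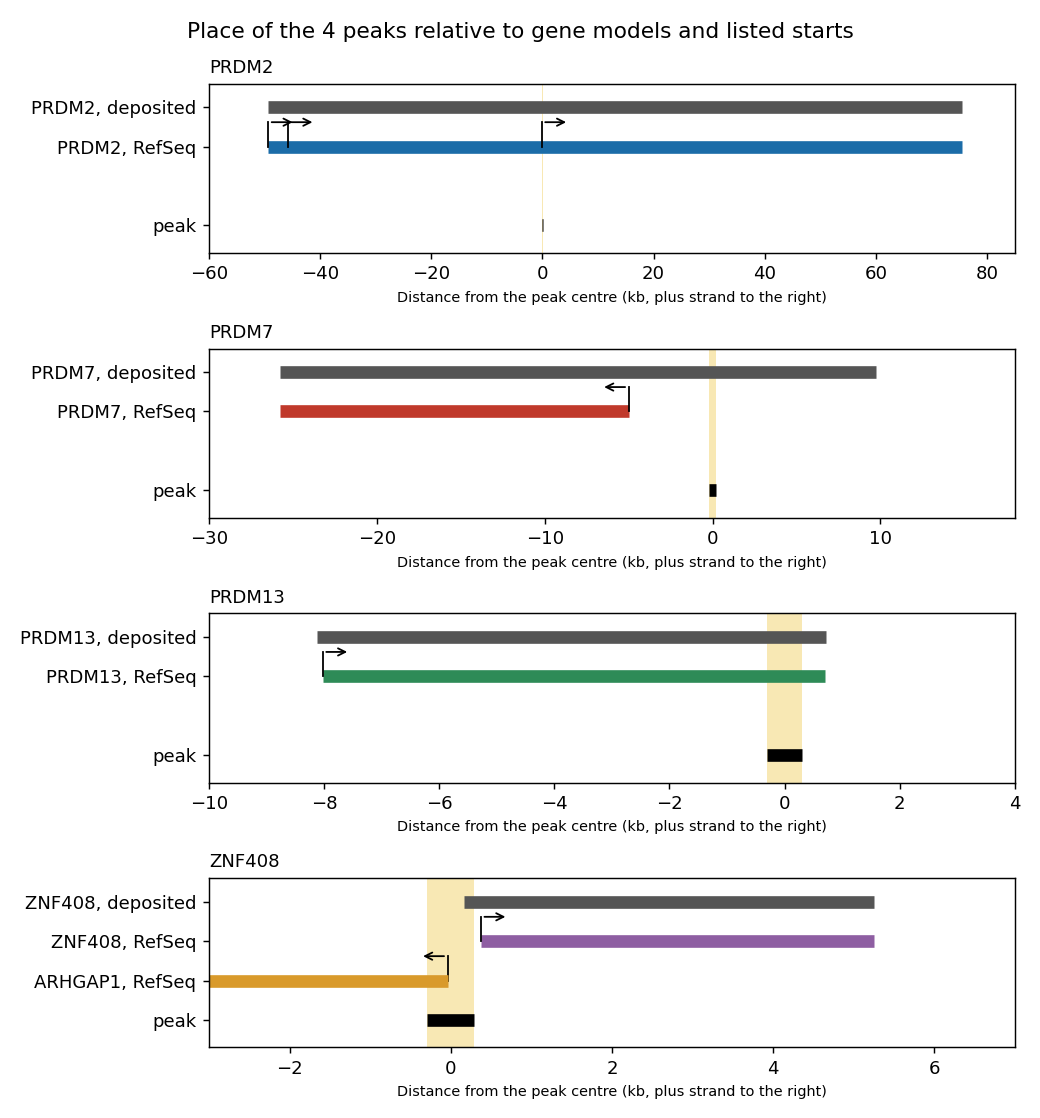
Deposited and RefSeq gene spans (horizontal bars), listed RefSeq starts (bent arrows, in the direction of reading) and the peak (black bar, yellow band) for each gene, by distance in kb from the peak centre. The PRDM2 peak begins 4 bp after the third start and the ZNF408 peak covers the ARHGAP1 start. The PRDM7 peak lies outside the RefSeq gene and the PRDM13 peak lies near the gene's far end.

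The 4 peaks thus had 4 different places. One spanned a deposited gene start, as did 662 of the 3419 peaks with a gene (19.4%), and 3 lay inside the deposited gene, as did 1382 (40.4%). By fold within its own class, PRDM7 ranked 196 of 1382, PRDM2 227 and PRDM13 467, while ZNF408 ranked 289 of 662.

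Motifs were searched on both strands of the 6 promoter windows of the 4 genes. The first zinc finger domain of MECOM is known to bind GATA-like sequences, whose full motif ends in AGATAA, and the second binds GAAGATGAG. Neither was found in any of the 6 windows, nor was AGATAA or the shorter GATAA within it. Over all windows GATAA occurred in 22.7%, AGATAA in 10.3%, the full GATA-like motif in 0.0541% and GAAGATGAG in 0.347%. ZNF408 had a match to CCGGAAG, which begins at -14 bp from its RefSeq start, lies on the opposite strand and falls outside the peak. The ARHGAP1 window had the other CCGGAAG match shown above, which begins at -67 bp from that gene's start and lies inside the peak. CCGGAAG occurred in 10.3% of all windows and in 16.7% of the 1564 windows overlapped by a peak. PRDM13 had a match to TGANTCA, the AP-1 motif, at -183 bp, far from its peak, against 7.71% of windows. CACGTG, the E-box motif, had no match in the 6 windows, against 7.26%. The windows of PRDM2 and PRDM7 held no match to any of the 7 motifs. The sequence under most of the PRDM2 peak and under the whole PRDM7 and PRDM13 peaks was not used here. Nor was the part of the ZNF408 peak outside the ZNF408 and ARHGAP1 windows.

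**Figure D4:**
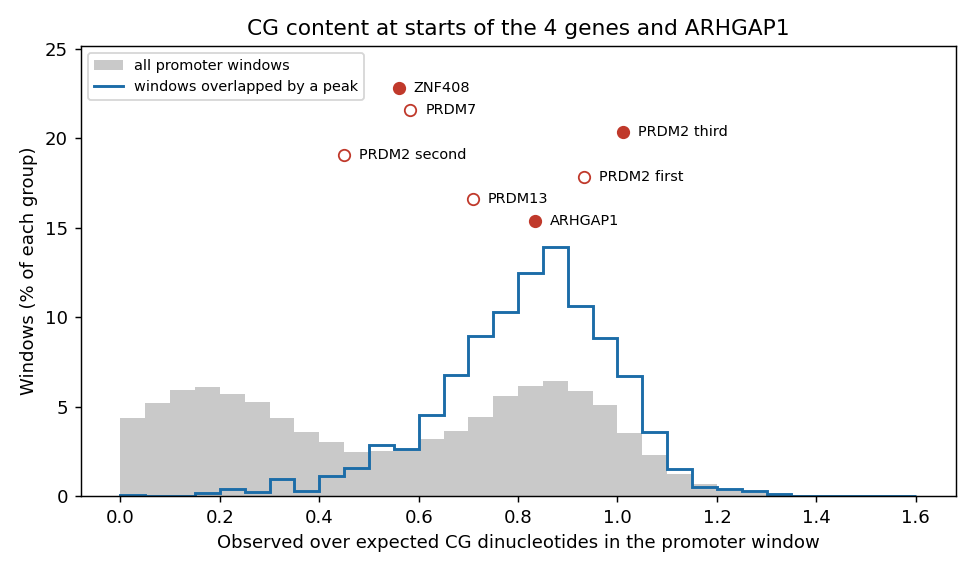
Observed over expected CG dinucleotides in RefSeq promoter windows, as the share of all windows (grey) and of windows overlapped by a peak (blue line), in % of each. Circles mark the starts of the 4 genes and ARHGAP1, filled where a peak overlaps the window; the internal PRDM2 start, drawn as the third, stands at 1.01 and the second at 0.45.

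The annotation named 4 of the 19 PRDM family genes for a peak, where the family is taken to include MECOM and the related ZFPM1 and ZFPM2. Over 20037 protein-coding genes 1990 were named (9.93%). At a −log10 q of at least 5 the family count was 3 (5.52% of protein-coding genes), at or above the median fold 4 (5.03%), and with peaks across a gene start only 1 (2.38%). The members were chosen for having a peak, so nothing is read from these shares. Taking instead any peak within 1000 bp of a RefSeq gene span, 7 of 19 family genes had one, against 13.7% of protein-coding genes. Within 10000 bp it was 8 of 19, against 17%. The 4 added genes were PRDM1, PRDM8, ZFPM2 and MECOM, whose peaks the authors had named for a neighbouring or overlapping gene. Both counts include genes chosen for having a peak, and MECOM itself. Gene length was not matched, so nothing is read from these shares either.

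PRDM8, a regulator of neural development, had a peak of 4.79-fold (2.94 to 7.43) that covered the later of its listed starts, from -741 to 6 bp. The PRDM8 peak also covered the start of its antisense gene PRDM8-AS1. Near PRDM1, which encodes the repressor BLIMP-1 of plasma cell differentiation, a peak of 6.53-fold (4.15 to 9.82) lay 1683 bp inside the low-coordinate end of the RefSeq span. PRDM1 is on the plus strand, so that is the end from which it is read, though no promoter window is listed there. The peak was 91289 bp from the nearest PRDM1 start with a promoter window. ZFPM2, a cofactor of GATA factors, had a peak of 5.58-fold (3.51 to 8.47) that ran across the low-coordinate end of its span. The intervals of these 3 peaks overlapped those of the 4 peaks above. MECOM held 5 peaks, of which 3 exceeded 100-fold, and there DNA of the introduced construct and binding cannot be told apart. One of the other MECOM peaks, at 7.40-fold (5.00 to 10.6), covered an internal start from -207 to 307 bp.

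In 7 family genes RefSeq lists several starts, and in 3 of them, PRDM2, PRDM8 and MECOM, a peak overlapped a window. In none of the 3 was it the window of the first start. Over all genes with several listed starts, the shares given above were 5.26% for first and 4.71% for later starts, so nothing particular to the family is read from these 3 genes. Of the 26 windows listed for the family, 4 were overlapped (15.4%), against 4.45% of all windows. The 4 include PRDM2 and ZNF408, which were chosen for having a peak.

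The remaining 11 family genes had no peak within 10000 bp. Their distance to the nearest peak ran from 66.4 kb for PRDM10 to 6890 kb for PRDM9, with a median of 218 kb. A peak list holds called peaks only, so binding too weak to be called at these genes was not detectable here.

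**Figure D5:**
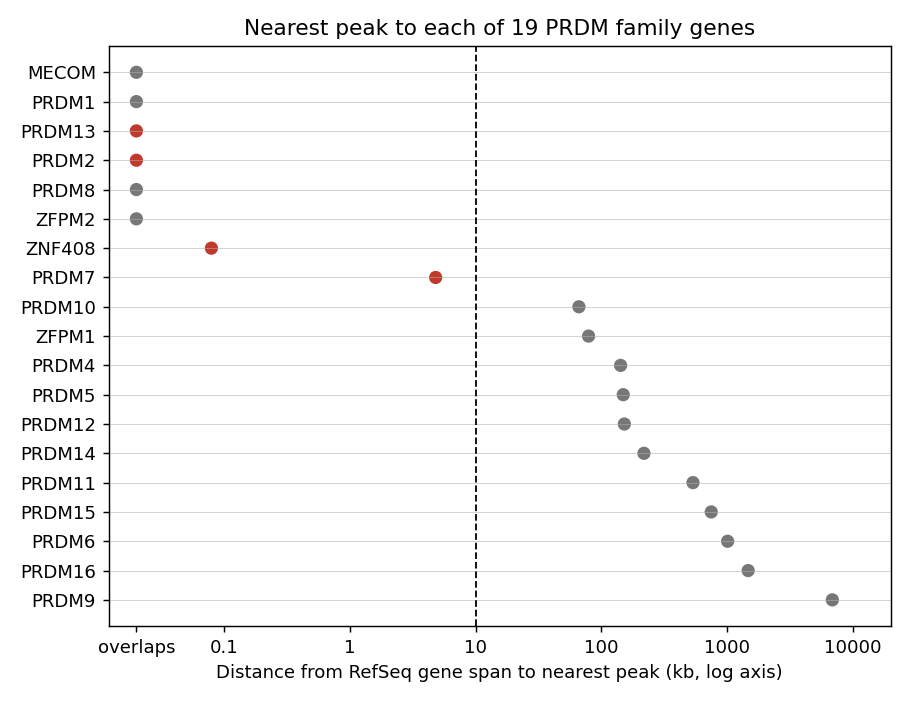
Distance in kb from the RefSeq span of each of 19 PRDM family genes to the nearest peak (log axis, genes overlapped by a peak at the left edge). Red points are the 4 genes named for a peak, the dashed line is at 10 kb, and 11 genes lie beyond it.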

How the data were processed

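AM-tag ChIP-seq was done in HEK293T cells (1 library per group); per the labels' protocols, fixed chromatin was fragmented by micrococcal nuclease, nuclei were broken by sonication, and read pairs were sequenced. The submitters' processing notes name hg38, Bowtie2 2.4.2, MACS2 2.1.1.20160309.6 and ChIPseeker 1.18.0 without roles. The deposited peak table has no header. It was assigned to the wild-type group by the genotype in its name. Its fold enrichment (a ratio), −log10 p, −log10 q and score are the authors' deposited values; columns were identified from their values, and the deposited distances were recomputed in all 3422 lines with a gene.

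Fragments were worked out from fold and −log10 p (tolerance 0.001), which gave a single solution for 3459 peaks. The 3 without one lie inside MECOM. A single solution was also found for 100% of 500 simulated peaks. Those were made with the same formula, so they check the solving step alone. Of 2286 symbols, 2249 matched RefSeq (GRCh38.p14). A facing pair is 2 genes on opposite strands, read away from each other, whose windows meet the same peak. Promoter windows were aligned globally with Biopython 1.88 (match 1, mismatch -1, gap -2 and -0.5). Python 3.11.15, pandas 2.3.3, numpy 2.4.6 and scipy 1.17.1 were used. The sources used here give no total reads. No test was run, since 1 list allows no comparison between groups. The named genes are the 4 members, family genes with a peak within 10000 bp, and genes or peaks next to a member; ARHGAP1 falls under this rule, and PRDM9 and PRDM10 mark the ends of a range. Members, lists and motifs were chosen with earlier results of these data known. Alternatives covered the q threshold, gene assignment, background, ranking and strand.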

Additional observations from a re-analysis of the deposited data

How the results depend on the processing

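The number of family genes with a peak, 4, became 7 with the RefSeq span widened by 1000 bp, 8 within 10000 bp and 1 with peaks across a gene start only. These settings change which gene a peak counts for. It was 3 at a −log10 q of at least 5 and 4 among peaks at or above the median fold. The distance of PRDM7 changed sign, from 9931 bp inside the deposited gene to -4998.5 bp from the RefSeq start to the peak centre, because the gene models differ. The motif matches of ZNF408 went from 1 to 0 on the gene's own strand. With no added count the folds were 8.43 for PRDM7, 8.37 for PRDM2, 7.66 for PRDM13 and 6.75 for ZNF408. With the median background for every peak they were 5.36, 4.85, 3.57 and 4.34. All stayed inside the intervals given above, but those cover counting error alone and are no check of these settings. With the median background ZNF408 stood above PRDM13, and both lay below 4.82, the list median of the deposited folds. The settings for listed starts near peaks deep in a gene were chosen after seeing the data. The share of 37.3% was 31.3% within 500 bp and 34.9% for peaks over 5000 bp inside the gene. Among peaks at the stricter q, PRDM7 stood above 71.1%, PRDM2 above 67.5% and ZNF408 above 25.5%, against 84.2%, 82.2% and 56.2% of the whole list; PRDM13 misses that q and has no rank there. No paired analysis was possible because the labels carry no replicate numbers and the 1 list used comes from 1 library.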

Other observations

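Across the list, promoter windows overlapped by a peak differed in base content from the rest. Their median GC content was 66.3%, against 58% in the 33552 other windows, and they held a median of 27 CG dinucleotides against 12. GATAA occurred in 13.6% of the 1564 overlapped windows and in 22.7% of all windows, and AGATAA in 4.67% and 10.3%. The full GATA-like motif occurred in 0% and 0.0541%. It was in only 19 of all 35116 windows, too few for its absence from the overlapped ones to be read. The AP-1 motif TGANTCA occurred in 4.86% and 7.71%, and CACGTG in 8.18% and 7.26%. These shares were not matched for GC content, whose part in them was not tested.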
